A study of Drosophila melanogaster with 4 samples.

Results

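This account is about 10 genes of the Drosophila wing imaginal disc whose signal on the control array differed in the same direction from all 3 arrays of transgene-carrying discs. They are Zip102B, Galt, Ctl2, CG6701, CG5618, acs, Osi6, NT5E-2, CG10912 and CG14107, which is 10 of the 11981 genes named on the array. They were chosen from the very differences given below, so those differences are a description and carry no test. The wing disc is the larval epithelium from which the wing blade, hinge and back of the fly develop, and discs came from larvae of the 3rd instar raised at 25 °C. All 4 genotypes are in a yw background and carry the en-Gal4 driver, which is active in the posterior compartment, so each RNA sample mixed driver-active and driver-inactive cells. The genotypes were PI3K (en-Gal4 over UAS-PI3K), Hdac3 RNAi (en-Gal4 over a plain homologue, with UAS-Hdac3 RNAi over a plain homologue), PI3K plus Hdac3 RNAi (both constructs, here called double-transgene discs) and control (en-Gal4 over a plain homologue, with no UAS construct). Each genotype had 1 array, and the number of discs or larvae behind it is not given in the sources used here. No construct is common to all 3 transgene genotypes. What they share against control is that each carries at least 1 UAS construct. Neither Hdac3 nor the PI3K genes are analysed here, and the constructs' effect on their targets was not checked.

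The genes do not belong to a single pathway. Zip102B belongs to the ZIP family, whose members carry zinc into the cytoplasm from outside the cell or from organelles. Galt encodes galactose-1-phosphate uridylyltransferase, the enzyme of the Leloir pathway that passes a uridylyl group from UDP-glucose to galactose-1-phosphate. Ctl2 is a choline transporter-like gene, and acs (CG1139) belongs to the proton-assisted amino acid transporters, a family linked to growth through TOR in flies. NT5E-2 belongs to the ecto-5′-nucleotidases, which turn extracellular AMP into adenosine. CG5618 belongs to the pyridoxal phosphate-dependent (PLP) amino acid decarboxylases, and Osi6 to the Osiris family of small membrane proteins of insect epithelia that make cuticle. CG6701, CG10912 and CG14107 are given by their annotation names only.

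Values are intensities in array units after each array was scaled to a common trimmed mean. A floor of 26.9, taken from odorant and gustatory receptor probe sets, marks the level below which a value was not separated from background. A difference against a value under the floor is given as a bound. Differences are log2, transgene array minus control. With 1 array per genotype there is no replicate error, and the number of arrays limits precision. The only internal measure of error is the disagreement between probe sets of the same gene, whose SD was 0.23 log2 for PI3K against control, 0.18 for Hdac3 RNAi against control and 0.19 for PI3K plus Hdac3 RNAi against control. It covers probe differences within these RNA samples and not variation between animals. All 10 genes are read by a single probe set, so none has a second reading. In RNA from whole discs, fewer cells of a type and less RNA per cell cannot be told apart.

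In the 5 genes that were higher in the transgene discs, control was the lowest array every time. Zip102B had 408 in PI3K, 525 in Hdac3 RNAi and 512 in double-transgene discs, against 34.9 in control. The 3 transgene arrays lay together and control lay close to the floor, with differences of 3.55, 3.91 and 3.88 log2, the smallest of them 11.7-fold. No other named gene on the array had a larger smallest difference to control.

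Galt had 166 in PI3K, 157 in Hdac3 RNAi and 143 in double-transgene discs, against 51.2 in control. The differences were 1.70, 1.61 and 1.48, with the transgene arrays within 0.22 log2 of each other. CG6701 had 240.0, 197 and 245 in PI3K, Hdac3 RNAi and double-transgene discs, against 87.9 in control, differences of 1.45, 1.16 and 1.48. The lowest of its transgene arrays, Hdac3 RNAi, was still 2.24-fold above control.

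CG5618 had 158, 175 and 195 in PI3K, Hdac3 RNAi and double-transgene discs, against 72.5 in control. Its differences of 1.12, 1.27 and 1.43 were largest with both transgenes. Ctl2 had 131, 144 and 130 in the same 3 genotypes, against 60.6 in control, differences of 1.11, 1.25 and 1.11. PI3K discs with and without Hdac3 RNAi were nearly alike in Ctl2 signal, and its transgene arrays spanned only 0.15 log2. The Ctl2 and NT5E-2 probe sets carry the suffix Affymetrix uses for probes shared by several transcripts.

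In the 5 genes that were lower in the transgene discs, control was the highest array every time. Osi6 had 18.3 in PI3K, 12.7 in Hdac3 RNAi and 23.1 in double-transgene discs, against 122 in control. All 3 transgene values lay under the floor, so Osi6 was at least 2.18 log2 (at least 4.54-fold) lower on each, and the 3 cannot be ranked. CG10912 had 64.0 in PI3K, 70.0 in Hdac3 RNAi and 26.2 in double-transgene discs, against 192 in control. The differences were -1.58 in PI3K and -1.45 in Hdac3 RNAi discs, and the double-transgene value, under the floor, gives a bound of -2.83.

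The amino acid transporter gene acs had 54.2 in PI3K, 33.9 in Hdac3 RNAi and 45.4 in double-transgene discs, against 148 in control. Its differences were -1.45, -2.12 and -1.70, with Hdac3 RNAi the lowest array. NT5E-2 had 64.0, 45.0 and 55.1 in PI3K, Hdac3 RNAi and double-transgene discs, against 128 in control, differences of -1.0, -1.51 and -1.22. The order of the 3 transgene arrays was the same as for acs. CG14107 had 36.7, 38.3 and 39.7 in PI3K, Hdac3 RNAi and double-transgene discs, against 82.4 in control. Its differences of -1.17, -1.11 and -1.05 were nearly equal in the 3 genotypes, although the transgene values were not far above the floor.

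**Figure D1:**
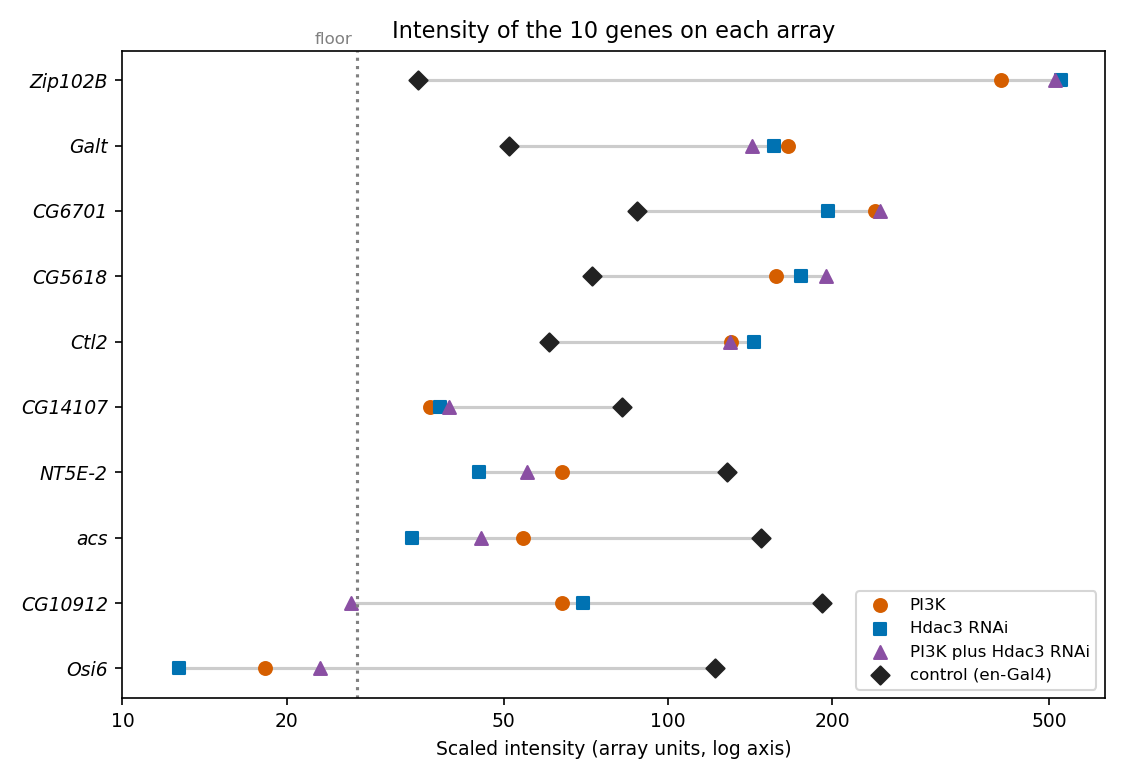
Scaled intensity (log axis) of the 10 genes on the 4 arrays, 1 point per array, with the floor of 26.9 as a dotted line. Control is the lowest point for the upper 5 genes and the highest for the lower 5, from Zip102B at 34.9 in control to Osi6, whose 3 transgene points lie left of the floor.

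A total of 7940 genes reached the floor on 1 array or more. Of these, 13 had all 3 transgene arrays at least 2-fold from control in the same direction, 0.164% of the genes, and all 10 described here are among them. The 3 transgene arrays were higher for 6 genes (0.0756%) and lower for 7 (0.0882%). The other 3 genes are inv, Drsl2 and CG15818. The homeobox gene inv, paralogue and neighbour of en, had differences of 2.18 in PI3K, 2.10 in Hdac3 RNAi and 2.35 in double-transgene discs. Drsl2, a drosomycin-like peptide gene, had 37.2, 19.2 and 18.4 in PI3K, Hdac3 RNAi and double-transgene discs, against 113 in control, with the 2 lowest values under the floor. CG15818 had 34.2, 24.4 and 16.7 in the same genotypes, against 84.7 in control, also with the 2 lowest values under the floor, and its smallest difference was 2.47-fold.

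The rule for the 10 genes names no fold. The gene with the smallest difference among them is NT5E-2, whose PI3K value was 2.0-fold below control and which misses 2-fold under quantile normalization (-0.96 log2). Just outside lies Ect3, lower in the transgene discs by a smallest difference of 1.93-fold, with 131 in PI3K, 49.9 in Hdac3 RNAi and 44.5 in double-transgene discs, against 253 in control. After it come CG14879 at 1.88-fold and CG11854 at 1.84-fold, both lower in the transgene discs. With no minimum size, control lay outside the range of the other 3 arrays for 3177 of the 7940 genes (40.0%), so the direction alone was common.

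The same count was made for each of the other genotypes. The PI3K array was at least 2-fold from the other 3 arrays in the same direction for 50 genes (0.63%), the PI3K plus Hdac3 RNAi array for 23 (0.29%) and the Hdac3 RNAi array for 7 (0.0882%). Control, with 13, was therefore not the array with the most such genes. The 3 comparisons with control share the control array, and each called more genes singly than the 13: 105 in PI3K (1.32%), 50 in Hdac3 RNAi (0.63%) and 71 in double-transgene discs (0.894%). The 10 genes are called in all 3 comparisons by their choice.

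Differences among the 3 transgene arrays do not use the control array. The median range of the 10 genes over these arrays was 0.31 log2, against 0.21 over all 7940 genes, and 3 of the 10 had a range below that median, among them Osi6, whose values were all under the floor. Zip102B had a range of 0.37, and its smallest difference to control was 9.70 times as large. Unlike the range, that ratio uses the differences to control by which the genes were chosen, so it is only a description. The same ratio was 9.08 for CG14107, 7.59 for Ctl2, 6.84 for Galt, 3.71 for CG6701 and 3.66 for CG5618. It was smaller, at 2.14, for acs, 1.97 for NT5E-2 and at most 1.05 for CG10912. The double-transgene value of CG10912 lies under the floor, so its range is only bounded, at 1.38 or more, or at 1.06 or more with the floor at the 95th percentile of the receptor probe sets.

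Adding Hdac3 RNAi to PI3K discs moved 1 of the 10 genes by at least 2-fold, against 1.44% of all genes. That gene was CG10912, whose difference of -1.25 log2 is a bound. This count depends on the floor. With the floor at the 95th percentile CG10912 had, against control, a bound of -2.51 in double-transgene discs and -1.58 in PI3K discs. The bound between those 2 arrays then falls short of 2-fold. Against Hdac3 RNAi alone, CG10912 was again the only gene of the 10 past 2-fold (0.655% of all genes), with a bound of -1.38. PI3K against Hdac3 RNAi moved 0 of the 10 (1.79% of all genes), the largest difference being that of acs at 0.68, followed by NT5E-2 at 0.51. The median size of the 10 genes' differences was 0.22 for double-transgene against PI3K discs, 0.15 against Hdac3 RNAi and 0.15 for PI3K against Hdac3 RNAi. Over all genes the same medians were 0.14, 0.08 and 0.18.

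**Figure D2:**
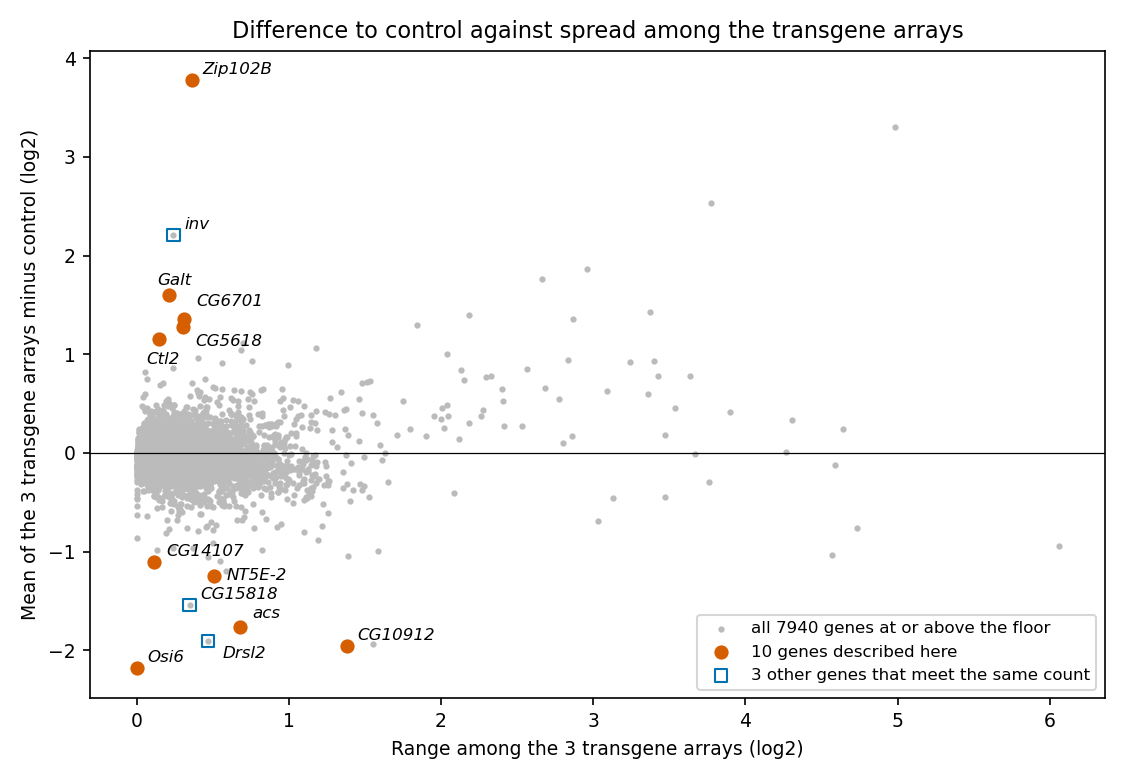
Mean log2 difference of the 3 transgene arrays from control (vertical) against their own log2 range (horizontal) for 7940 genes, with the 10 genes filled and inv, Drsl2 and CG15818 as open squares. Zip102B stands at a range of 0.37 and CG10912 at 1.38, a lower bound, while Osi6 is drawn at 0 because its 3 transgene values lie under the floor.

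The 10 genes are spread over the chromosome arms: 3 on 2R, 3 on 3L, 2 on 3R, 1 on 2L, 1 on chromosome 4 and 0 on X. Of all 7940 genes, 20.4% lie on 2R, 19.9% on 3L, 24.4% on 3R, 17.7% on 2L, 0.567% on chromosome 4 and 16.6% on X. By the notation of the genotypes, the UAS-PI3K construct lies opposite en-Gal4 on the second chromosome and the UAS-Hdac3 RNAi construct on the third. Galt, CG6701, NT5E-2 and CG10912 lie on the second chromosome. CG5618, acs, CG14107, Osi6 and Ctl2 lie on the third.

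The chromosomal neighbours of the 10 genes were read on the same arrays. Of the 60 named genes that the array reads among the 3 nearest on each side, 33 were at or above the floor, and 0 of them had all 3 transgene arrays at least 2-fold from control, where 0.164% of all genes did. The 10 genes were chosen for standing apart and their neighbours were not, and at that share few or no such genes fall among 33, so the count says nothing particular about the neighbours. The largest smallest difference among the 33 was 0.16 log2, and the median size of their differences to control was 0.12. Rad23, on one side of Zip102B, had 1962 in PI3K, 1755 in Hdac3 RNAi and 1778 in double-transgene discs, against 1756 in control, within 0.16 log2 of control on each array. On the other side Rnf11, a RING finger gene, had 189 in PI3K, 859 in Hdac3 RNAi and 673 in double-transgene discs, against 388 in control. Rnf11 was the only neighbour past 2-fold on any array, and its differences of -1.04, 1.15 and 0.80 ran in both directions.

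Neighbours of the other genes higher in the transgene discs are given by their differences from control. Spn27A, next to Galt, differed from control by 0.09 in PI3K, 0.10 in Hdac3 RNAi and 0.05 in double-transgene discs. Ctl2 lies between yem and dgt6, whose differences were -0.04, -0.20 and -0.19 for yem and 0.04, 0.08 and 0.09 for dgt6. Ctf4, beside CG6701, had -0.12, -0.13 and -0.07. CG5618 lies between kin17, with 0.05, -0.10 and -0.15, and eRF1, whose span overlaps it in the Release 6 gene table and which had 0.12, 0.00 and 0.01. The span of Galt overlaps those of cup and CG34310, which are not analysed here. NT5E-2 and CG14107 overlap CG43110 and CG14111, both under the floor on all arrays.

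Among the genes lower in the transgene discs, NT5E-2 lies next to veil, another gene of the nucleotidase family. The veil signal was 27.8 in PI3K, 32.1 in Hdac3 RNAi and 29.0 in double-transgene discs, against 27.1 in control, all next to the floor. Osi6 sits in the Osiris gene cluster between Osi5 and Osi7. Osi5 was under the floor on every array, and Osi7 had 61.4, 72.3 and 73.5 in PI3K, Hdac3 RNAi and double-transgene discs, against 56.1 in control. Osi7 was therefore slightly higher on the arrays where Osi6 was under the floor. The nearest genes of acs (CG11815 and CG42841) and of CG10912 (CG10911 and CG34386) were under the floor on all arrays and give no comparison. ImpL1, an ecdysone-inducible gene beside CG14107, had differences of 0.19, -0.97 and -0.37, while SNCF on the other side of CG14107 was under the floor on all arrays.

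**Figure D3:**
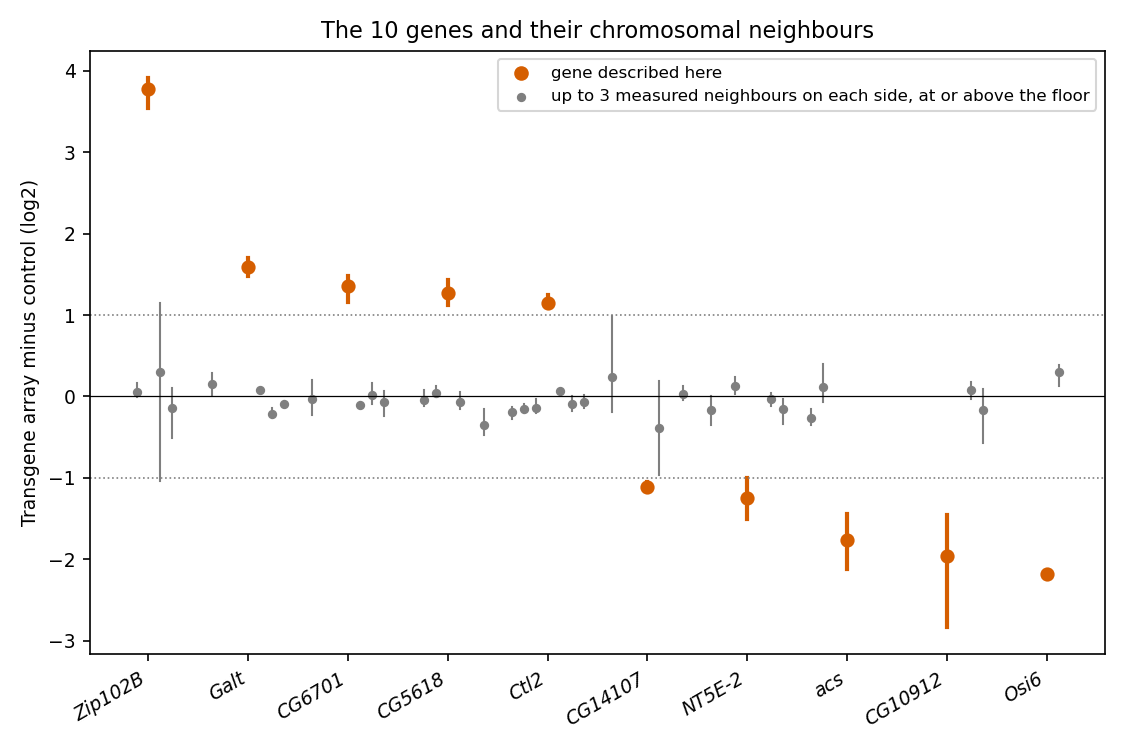
Log2 difference from control of the 10 genes (large points) and of their named chromosomal neighbours at or above the floor (small points, in chromosomal order), as the mean of the 3 transgene arrays with a bar from the lowest to the highest. The neighbours' means stay between the dotted 2-fold lines, and the widest bar is that of Rnf11 beside Zip102B, from -1.04 to 1.15.

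Genes of the same families and pathways were also read. In 6 lists covering zinc transport, galactose and UDP-sugar metabolism, choline and phosphatidylcholine, PLP decarboxylases, nucleotidases and adenosine, and Osiris genes, 42 genes besides the 6 listed members were at or above the floor. Of these 42, 0 were at least 2-fold from control on any transgene array, where 1.32%, 0.63% and 0.894% of all genes were in PI3K, Hdac3 RNAi and double-transgene discs. At these shares a count of 0 of 42 is close to the background and is not particular to the families.

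Of the zinc list's 17 genes at or above the floor, Zip102B was the only gene past 2-fold. The list's median difference was 0.04 in PI3K, -0.05 in Hdac3 RNAi and 0.00 in double-transgene discs, against medians of 0.02, -0.02 and -0.01 over all genes. Catsup, a ZIP family member, had 2501, 2153 and 2257 in PI3K, Hdac3 RNAi and double-transgene discs, against 2241 in control. ZnT86D, of the family that moves zinc out of the cytoplasm, had 1212, 1063 and 1150, against 1271 in control. Both were within 0.26 log2 of control on every array.

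Galt's pathway partners stayed close to control. Galk, the galactokinase that makes the substrate of Galt and was picked after its values were seen, had differences of 0.25 in PI3K, -0.14 in Hdac3 RNAi and -0.10 in double-transgene discs. Pgm1, a phosphoglucomutase, had 0.20, -0.33 and -0.10, and sgl, the UDP-glucose dehydrogenase, had -0.18, -0.05 and -0.16. Ctl1, the other choline transporter-like gene of the list, had 1796, 1736 and 1717 in PI3K, Hdac3 RNAi and double-transgene discs, against 1754 in control, where Ctl2 differed 2.15-fold or more. The phospholipid synthesis gene bbc had differences of 0.02, 0.13 and 0.11.

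Ddc, the dopa decarboxylase of the PLP list, had differences of 0.28 in PI3K, -0.48 in Hdac3 RNAi and -0.09 in double-transgene discs, unlike CG5618, which was higher on all 3. In the same list amd was lower on all 3 (-0.23, -0.69 and -0.70). Tdc1, close to the floor, ran in both directions (-0.34, -0.06 and 0.11). In the nucleotidase and adenosine list, the nucleoside transporter genes Ent2 (0.18, 0.02 and 0.04) and Ent1 (-0.05, -0.23 and -0.16) lay near control. Adgf-A had the largest smallest difference of that list besides NT5E-2. It was higher on each transgene array (0.46, 0.80 and 0.36), at 39.6, 50.2 and 36.9, against 28.8 in control, close to the floor. Besides Osi6, 22 Osiris genes were read, of which 7 were at or above the floor and 0 were past 2-fold. Osi14 had 149, 138 and 162 in PI3K, Hdac3 RNAi and double-transgene discs, against 144 in control, and Osi2 had 82.1, 82.3 and 91.6, against 92.4 in control.

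**Figure D4:**
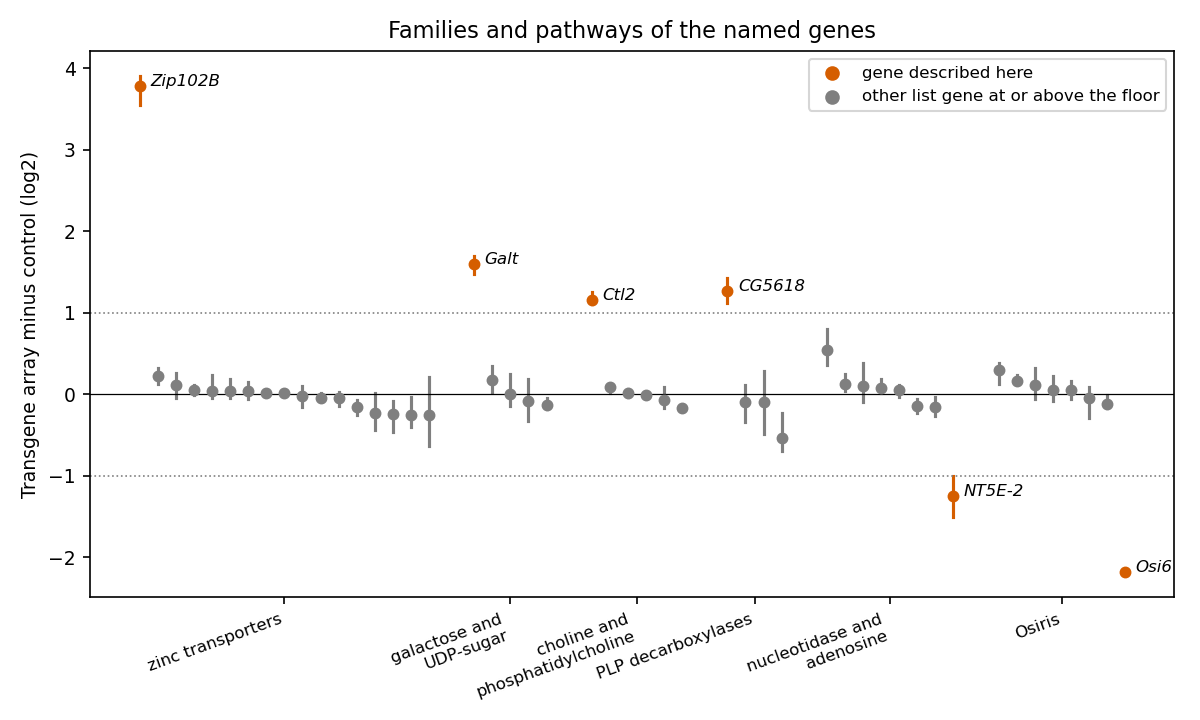
Log2 difference from control, as the mean of the 3 transgene arrays with a bar from the lowest to the highest, for genes at or above the floor in 6 family and pathway lists. The 6 labelled genes lie outside the dotted 2-fold lines and the 42 others inside them on every array.

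Several measures of the tissue samples were read beside these genes. Genes of wing development were read in every sample: nub, with 2190 in PI3K, 2922 in Hdac3 RNAi and 2738 in double-transgene discs, against 2642 in control, and vg, with 687, 1172 and 1056, against 992. Of 50 markers of disc, fat body, salivary gland, gut, hemocyte, muscle, trachea and nerve at or above the floor, 0 set control apart by the 2-fold count, against 0.164% of all genes, a share at which the count of 0 does not bear on tissue content. Summed fat body markers (5 of 8 read) came to 12816 in PI3K, 6589 in Hdac3 RNAi and 824 in double-transgene discs, against 3091 in control, which lay between the transgene arrays. Salivary gland markers (6 of 6 read) came to 4123, 636 and 450, against 625 in control, and gut markers (6 of 8 read) to 4233, 1303 and 296, against 1509, with control again between the transgene arrays. Summed wing disc, hemocyte and adult muscle precursor markers also had control between the transgene arrays. Summed tracheal markers (5 of 6 read) came to 8739, 10410 and 10876, against 8156 in control, the lowest of the 4. Control was the highest for differentiated muscle (3 of 6 read; 266, 378 and 335, against 391) and for neuron and glia (4 of 5 read; 272, 369 and 297, against 377). In these 2 sums Hdac3 RNAi differed from control by only -0.05 and -0.03 log2. The part of these tissues in the values of the 10 genes was not tested. Of the sex-dependent genes (4 of 6 read, without roX1 and roX2), Sxl had 302, 617 and 633 in PI3K, Hdac3 RNAi and double-transgene discs, against 561 in control. The differences of dsx also ran in both directions, at -0.25, 0.48 and 0.13. By contrast, msl-2 was lower on each transgene array (-0.29, -0.21 and -0.20) and tra slightly higher on each (0.03, 0.06 and 0.13). Among the ecdysone-timing genes (14 of 16 read, without Eip74EF and Eip75B) only Cyp18a1, which encodes an ecdysone-inactivating enzyme, was past 2-fold, with differences of -0.15, -1.01 and -1.25. Short of 2-fold, Hr4 (-0.73, -0.32 and -0.50) and Eip78C (-0.27, -0.28 and -0.29) were lower on each transgene array. Eip71CD was higher on each (0.30, 0.23 and 0.28), while others, such as br and EcR, ran in both directions. Control lay outside the range of the other 3 arrays for 40.0% of all genes. The 3′ to 5′ signal ratio is a measure of RNA and labelling quality. For actin it was 2.02 in PI3K, 3.25 in Hdac3 RNAi and 2.85 in double-transgene discs, against 3.36 in control. For GAPDH it was 1.92, 2.21 and 1.995, against 2.17 in control. For eIF-4a it was 3.11, 3.94 and 3.67, against 3.95 in control. PI3K had the lowest ratio for each transcript, and control lay close to Hdac3 RNAi.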

How the data were processed

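Intensity values on a linear scale, 1 per probe set and array, were used as deposited by the authors; MAS5 is the only tool in the submitters' processing notes, without version or settings. Of 18952 probe sets, 183 are Affymetrix controls. Annotation of 2016 gave 1 symbol to 13646, several to 402 and none to 4721, and only the first of these were used. Genes with several probe sets took the one with the highest mean. RefSeq's Release 6 gene table, to which 11892 of 11981 genes matched by gene ID, gave chromosome arms and neighbours.

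Scaling brought the 2% trimmed mean of every array to the mean of the 4. The floor is the 90th percentile of 125 receptor probe sets, and lower values were raised to it before log2. A gene set control apart when each transgene array was at least 2-fold from it in the same direction. No test was run, since each genotype has 1 array. Python 3.11.15, pandas 2.3.3 and numpy 2.4.6 were used. Alternatives covered scaling, floor, probe set, fold and leaving out each transgene array.

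The 10 genes and the lists were chosen with earlier results of these data known. Named besides the 10 are the other genes that set control apart, each gene's nearest read neighbours, and, per family or pathway list, genes past 2-fold and those with the highest signal. Ect3, CG14879, CG11854, Galk, Adgf-A, Sod3 and the Gr64 genes were named after their values were seen, as were the markers quoted singly. The same holds for amd, Tdc1, Hr4, Eip78C, Eip71CD, br and EcR.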

Additional observations from a re-analysis of the deposited data

Results flagged for a closer look

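For acs, PI3K had opposite signs in the 2 backgrounds, which share no array: 0.42 log2 in Hdac3 RNAi discs (PI3K plus Hdac3 RNAi minus Hdac3 RNAi) and -1.45 without Hdac3 RNAi (PI3K minus control). NT5E-2 did likewise, with 0.29 in Hdac3 RNAi discs and -1.0 without Hdac3 RNAi. Each value was larger than the SD between probe sets of a gene in its comparison, 0.15 and 0.23 log2. That SD pools genes of all levels at or above the floor, and the signals compared in Hdac3 RNAi discs were low. With and without PI3K they were 45.4 and 33.9 for acs and 55.1 and 45.0 for NT5E-2, where the floor is 26.9. The difference between backgrounds was not tested, and a gene chosen because control stands apart from all 3 other arrays tends to show it by that choice.

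A probe set of Sod3, an extracellular superoxide dismutase gene, was left out of the gene comparison because another probe set of the gene is brighter. It had 332 in PI3K, 406 in Hdac3 RNAi and 330 in double-transgene discs, against 101 in control, a smallest difference of 1.70 log2. The brighter probe set had 4062, 2524 and 3814, against 1647 in control. It was higher in the transgene discs as well, with a smallest difference of 0.62 that misses 2-fold.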

How the results depend on the processing

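All 10 genes stayed past 2-fold with values as deposited, with a floor at the 95th percentile of the receptor probe sets and with no floor. The mean over probe sets left them unchanged by construction, because each of the 10 is read by 1 probe set. With quantile normalization 9 stayed past 2-fold, because the smallest difference of NT5E-2 was -0.96 log2. The count of 13 genes was 12 to 17 over these 5 settings. The 17 came with no floor, where all 11981 genes were counted and not only the 7940 at or above the floor. At 1.5-fold it was 38 (16 higher and 22 lower in the transgene arrays) and at 3-fold 4 (2 and 2), with 2 of the 10 genes, Zip102B and Osi6, among the 4. Leaving out a transgene array loosens the count, so it can only add genes, and all 13 are kept by construction. The count was 26 without PI3K (10 higher, 16 lower), 23 without Hdac3 RNAi (13 higher, 10 lower) and 21 without PI3K plus Hdac3 RNAi (14 higher, 7 lower). With the higher floor the bound was -1.86 for Osi6 and -2.51 for CG10912 in double-transgene discs. No member difference changed direction under those 5 settings. List medians, computed under the same settings except no floor, changed sign in 4 cases, all close to 0: with values as deposited the PI3K medians of the choline and PLP lists were -0.0041 and -0.0062 and the double-transgene median of the PLP list was -0.0021, and with quantile normalization the double-transgene median of the zinc list was 0.04. No paired analysis was possible because each genotype has 1 array. Control cannot be left out, and its 1 array decides every value; a difference of that array and a difference of its genotype cannot be told apart.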

Other observations

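The Gr64 sugar receptor genes, which lie side by side and were picked after their values were seen, were lower in the transgene discs in several probe sets. A probe set shared by Gr64b and Gr64c had 112 in PI3K, 85.8 in Hdac3 RNAi and 91.7 in double-transgene discs, against 260.0 in control. The Gr64a probe set had 76.9, 51.2 and 56.0, against 139 in control. A probe set shared by Gr64d and Gr64e had 54.0, 32.6 and 45.2, against 63.5 in control, and that of Gr64f had 39.7, 26.1 and 30.6, against 41.8 in control. A second probe set shared by Gr64b and Gr64c was under the floor on all 4 arrays. The signal was lowest in Hdac3 RNAi and highest in control in each of the 4 probe sets that reached the floor. In PI3K, however, the difference was only -0.07 log2 for Gr64f and -0.23 for Gr64d and Gr64e. Neither exceeds the SD between probe sets of 0.23 for PI3K against control. The Gr64f value in Hdac3 RNAi lies under the floor. These probe sets read chemoreceptors, the gene class from which the floor was set.

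A probe set that the annotation names for no gene had 178 in PI3K, 283 in Hdac3 RNAi and 222 in double-transgene discs, against 988 in control. Its smallest difference, -1.80 log2, is larger than that of any of the 10 genes lower in the transgene discs except Osi6.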
